A study of Canis lupus familiaris with 60 samples.

Results

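SPINK5 encodes the protease inhibitor LEKTI, and 4 of the 60068 probes on a one-color canine oligonucleotide array carry its RefSeq transcript, which is 1 of 54601 identifiers on the array. They were found through that transcript's identifier, without its version, or through the symbol SPINK5 in the study's own annotation, and both routes gave the same 4 probes. The arrays measured 60 skin specimens of 12 Beagle dogs, of which 6 had been sensitized to Dermatophagoides farinae, a house dust mite, and 6 were nonsensitized controls. All dogs were 2 to 3 years old, had the chest clipped before the patch test and received lidocaine at the biopsy sites. Each dog gave 5 specimens: untreated skin at 0 hr, and sites patched with 75 mg of mite paste (allergen) or with 50 µl of saline, taken at 6 hr and at 24 hr. The 6 dogs had been sensitized experimentally, by repeated application of mite paste to the skin, which limits the groups to a model of an allergen challenge. Sensitization, site and time make 10 groups of 6 specimens. Dog 2839 gave no 24-hr allergen value to the fit, since its specimen, number 14, was set aside following the published methods. That group therefore had 5 specimens, and 59 arrays entered the fit.

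LEKTI is made by keratinocytes of the upper living layers of the epidermis as a long precursor of Kazal-type domains, which is cut into fragments and secreted. The fragments inhibit kallikrein proteases such as KLK5, KLK7 and KLK14. These proteases cut the desmosomal proteins that hold cornified cells together and activate the receptor F2RL1 (PAR-2). Loss of SPINK5 in humans causes Netherton syndrome, with a fragile barrier and an atopic tendency.

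The 4 probes were A_11_P055111, A_11_P0000023286, A_11_P051161 and A_11_P102401, each printed as 1 spot. Every one of them was well above background on 60 of 60 arrays, with 0 outlier flags and 0 saturated spots, so all 4 passed the filter on dim probes. The first has the highest mean signal, and its values are given in full. Values are the background-subtracted signals that the authors' scanner software wrote, put on a variance-stabilized log2 scale, on which a difference of 1 is a doubling for bright probes. Over the 59 arrays, A_11_P055111 ran from 14.78 to 16.26 with an SD of 0.299. A_11_P0000023286 followed it with a Pearson r of 0.989 and A_11_P051161 with an r of 0.955. A_11_P102401 followed less closely, with an r of 0.808 to the first probe and 0.712 to A_11_P051161. These 59 arrays share dogs and slides, and the correlations are a description. Which exons the probes cover was not analysed here.

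SPINK5 was lowest in the allergen-patched skin of sensitized dogs at 24 hr, for each of the 4 probes. On A_11_P055111 the 5 dogs of this group had 14.78 (dog 2838), 15.07 (dog 2840), 15.11 (dog 2855), 15.29 (dog 2853) and 15.32 (dog 2841). The 6 nonsensitized dogs at the same site and time had a lowest value of 15.35, a median of 15.80 and a highest value of 16.04. The highest sensitized dog was thus below the lowest nonsensitized dog. The saline sites of the same time did not separate in this way. They ran from 15.38 over a median of 15.53 to 15.65 in sensitized dogs and from 15.00 over a median of 15.56 to 15.75 in nonsensitized dogs, so the sensitized range lay within the other.

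In untreated skin the first probe ran from 15.18 over a median of 15.34 to 15.87 in sensitized dogs and from 15.11 over 15.77 to 15.93 in nonsensitized dogs. The ranges overlapped on this and the other 3 probes, while on 0.155% of all probes the untreated skin of both groups of dogs did not overlap. At 6 hr the allergen sites of sensitized dogs ran from 15.14 over 15.41 to 15.59 and those of nonsensitized dogs from 14.98 over 15.69 to 16.26, the widest range of the 10 groups. The 6-hr saline sites ran from 15.38 over 15.58 to 15.72 in sensitized dogs and from 15.33 over 15.85 to 16.03 in nonsensitized dogs. At 6 hr the ranges of both groups of dogs overlapped at either site.

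**Figure D1:**
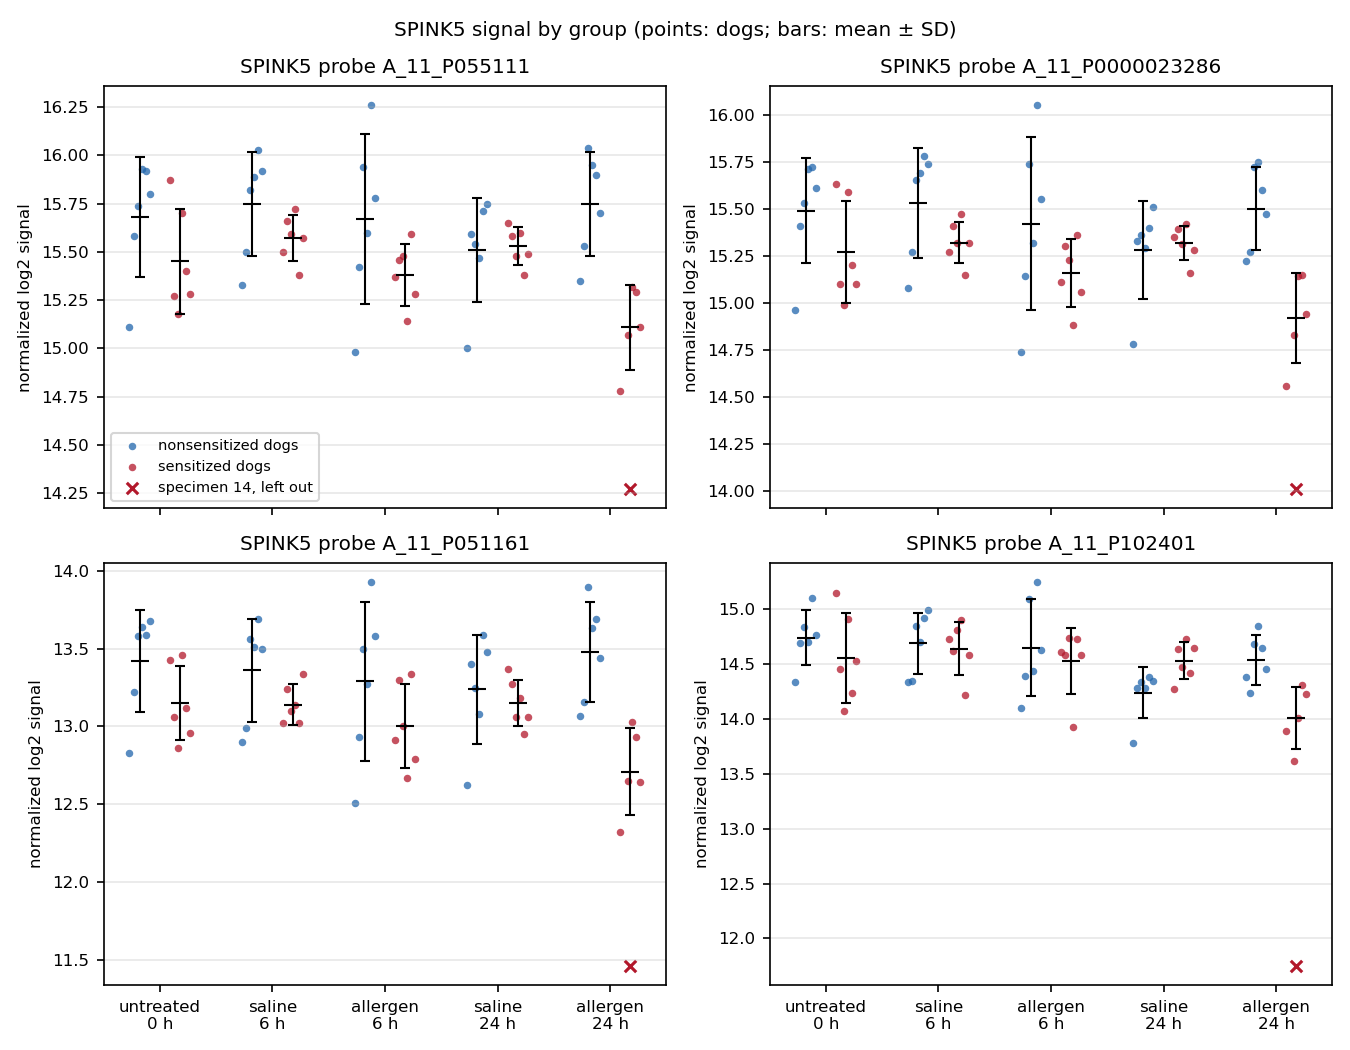
Normalized log2 signal of the 4 SPINK5 probes (one panel each, own vertical scale) in the 10 groups; points are dogs, bars are the group mean ± SD, and the cross is the left-out specimen 14 on the scale fitted with all 60 arrays. The 24-hr allergen sites of sensitized dogs have the lowest mean in each panel, with means of 15.11, 14.92, 12.71 and 14.01.

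The group means of A_11_P055111 stood in a narrow order. The nonsensitized dogs held the top 4 places, with 15.75 ± 0.27 (SD, n = 6) at the 6-hr saline sites, 15.75 ± 0.27 at the 24-hr allergen sites, 15.68 ± 0.31 in untreated skin and 15.67 ± 0.44 at the 6-hr allergen sites. Then came the sensitized saline sites with 15.57 ± 0.12 at 6 hr and 15.53 ± 0.10 at 24 hr, the nonsensitized 24-hr saline sites with 15.51 ± 0.27, the sensitized untreated skin with 15.45 ± 0.27 and the sensitized 6-hr allergen sites with 15.38 ± 0.16. The sensitized 24-hr allergen sites closed the order with 15.11 ± 0.22 (SD, n = 5). Of the 9 steps between neighbours, only the last, of 0.27, exceeded the larger of the SDs beside it. On A_11_P102401 the nonsensitized 24-hr saline sites came next to last with 14.24 ± 0.23, and the last step, of 0.23, was within the larger SD.

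The study's central question was whether allergen changes the skin of sensitized dogs differently from that of nonsensitized dogs, which is the allergen-minus-saline difference of sensitized dogs minus that of nonsensitized dogs, called the interaction here. At 24 hr the interaction of SPINK5 was -0.65 on A_11_P055111 (SE 0.22, 95% confidence interval -1.08 to -0.22, a 1.57-fold difference, limma adjusted p = 0.112). It was -0.62 (adjusted p = 0.132), -0.68 (adjusted p = 0.167) and -0.83 (SE 0.24, adjusted p = 0.0673) on A_11_P0000023286, A_11_P051161 and A_11_P102401. A probe counted as changed when its adjusted p over all 45972 probes was below 0.05 and its difference was at least 1.5-fold. By this rule 0 of the 4 probes changed, against 0.942% of all probes in either direction and 0.342% toward lower values. All 4 had an unadjusted limma p below 0.05, from 0.00119 to 0.00979, as did 14.2% of all probes in either direction and 5.86% toward lower values.

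The 5 specimens of a dog are not independent, and a fit with the dog as a block changed the call. With the dog as a fixed block the interaction of A_11_P055111 was -0.65 with an SE of 0.15 and an adjusted p of 0.00605, and with the dog as a random block it was -0.65 with an adjusted p of 0.0129. The other 3 probes passed both limits under the fixed block too, with adjusted p values of 0.011, 0.0149 and 0.012. How many of all probes passed under this block was not counted here. Without dog 2704, which had the lowest value of the nonsensitized dogs on A_11_P055111 at each site and time, the unblocked interaction of this probe was -0.63 (adjusted p = 0.0393). With all 60 arrays it was -0.79 (adjusted p = 0.0489). Only 2 of the 8 slides held all kinds of 24-hr site. The interaction was -0.91 within the one with 8 such arrays and -0.29 within the one with 6 (-1.03 and -0.86 on A_11_P102401), with 1 array for either nonsensitized site on the former slide and 1 for the allergen sites of either group on the latter. With the slide as a fixed block it was -0.57 (adjusted p = 0.13). On A_11_P102401 it was -0.76 (adjusted p = 0.0661) with the slide as a fixed block and -0.81 (adjusted p = 0.0463) as a random block. Over the alternatives that kept every dog the adjusted p of A_11_P055111 ran from 0.00605 to 0.205, and over the fits without 1 dog from 0.0393 to 0.283.

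Within each dog, allergen minus saline at 24 hr on A_11_P055111 was -0.88 in dog 2838, -0.41 in dog 2840, -0.38 in dog 2855, -0.28 in dog 2841 and -0.09 in dog 2853. All 5 sensitized dogs were thus lower at the allergen site. In nonsensitized dogs it was 0.50 in dog 2800, 0.48 in dog 2802, 0.35 in dog 2704, 0.19 in dog 2845, -0.05 in dog 2847 and -0.06 in dog 2716. These were higher in 4 of 6 dogs. The per-dog differences of sensitized and nonsensitized dogs did not overlap on A_11_P055111 and A_11_P102401 and overlapped on the other 2 probes, while on 3.5% of all probes the per-dog differences did not overlap. An exact two-sided permutation of sensitization over the 5 and 6 dogs gave p = 0.00433 for the first probe, the smallest value this design can give. The other probes gave exact permutation p values of 0.013, 0.0216 and 0.00433.

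**Figure D2:**
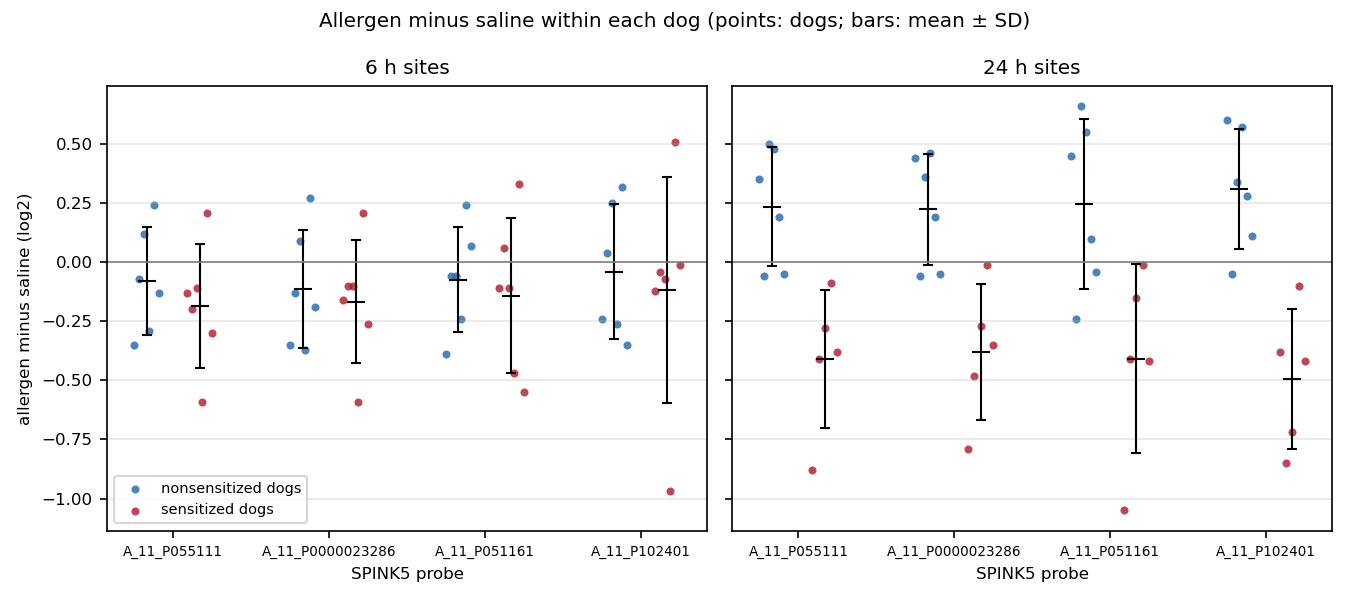
Allergen minus saline within each dog (log2) at 6 hr and 24 hr for the 4 SPINK5 probes; points are dogs, bars are mean ± SD, and the gray line is no difference. At 24 hr every sensitized dog lies below 0 on every probe, with -0.41 ± 0.29 (SD, n = 5) on A_11_P055111, while the nonsensitized dogs have 0.23 ± 0.25 (SD, n = 6).

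The components of the interaction were smaller. In sensitized dogs, allergen minus saline at 24 hr was -0.42 on A_11_P055111 (SE 0.16, interval -0.73 to -0.10, limma adjusted p = 0.257) and between -0.40 and -0.52 on the 4 probes. None of the 4 passed the limits, against 0.274% of all probes, although all 4 had an unadjusted p below 0.05, as did 11.2% of all probes. With the dog as a fixed block the adjusted p of the first probe was 0.0166, and its 1.33-fold difference stayed under the 1.5-fold limit, and over the alternatives that kept every dog the adjusted p ran from 0.0166 to 0.377. In nonsensitized dogs the same difference was 0.23 (SE 0.15, interval -0.06 to 0.53, adjusted p = 0.623), between 0.22 and 0.31 on the 4 probes. Again 0 of 4 passed, against 0.766% of all probes, and 0 of 4 had an unadjusted limma p below 0.05, against 11.7%.

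The comparison of the allergen sites alone passed the test. At 24 hr SPINK5 was lower in sensitized than in nonsensitized dogs by 1.55-fold on A_11_P055111 (-0.63, SE 0.16, interval -0.95 to -0.32, limma adjusted p = 0.00317). It was lower by 1.70-fold on A_11_P051161 (-0.77, SE 0.18, adjusted p = 0.0023). These 2 of 4 probes passed both limits, against 3.59% of all probes toward lower values and 7.16% in either direction. The other pair had adjusted p values of 0.00627 and 0.0229 with differences of 1.49-fold and 1.45-fold, under the fold limit. On 3 of the 4 probes no sensitized dog reached the lowest nonsensitized dog, as on 4.12% of all probes. The 1.55-fold difference was close to the limit, since without dog 2800 it was -0.57 (adjusted p = 0.016) and without dog 2838 -0.55 (adjusted p = 0.0171), both under 1.5-fold. With the slide as a fixed block it was -0.49 (adjusted p = 0.103), and with the slide as a random block -0.57 (adjusted p = 0.0159). A_11_P051161 lost the call with the slide as a fixed block too, at -0.53 (adjusted p = 0.13), and kept it with the slide as a random block and without any 1 dog. The adjusted p ran from 0.000362 to 0.103 over the alternatives that kept every dog. At the saline sites of 24 hr the difference was 0.02 (SE 0.15, interval -0.28 to 0.32, adjusted p = 0.958). A specimen holds all layers of the skin, so fewer SPINK5-expressing cells and less SPINK5 mRNA per cell cannot be told apart.

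The probes divided the interaction differently between the sites. On A_11_P055111 it was made up of -0.63 at the allergen sites and 0.02 at the saline sites. On A_11_P102401 the allergen sites differed by -0.53 and the saline sites by 0.29 (SE 0.17, adjusted p = 0.301) in the other direction. Its larger interaction thus contained a saline part that the other probes hardly had, with saline differences of 0.04 on A_11_P0000023286 and -0.09 on A_11_P051161. The difference between probes was not tested.

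**Figure D3:**
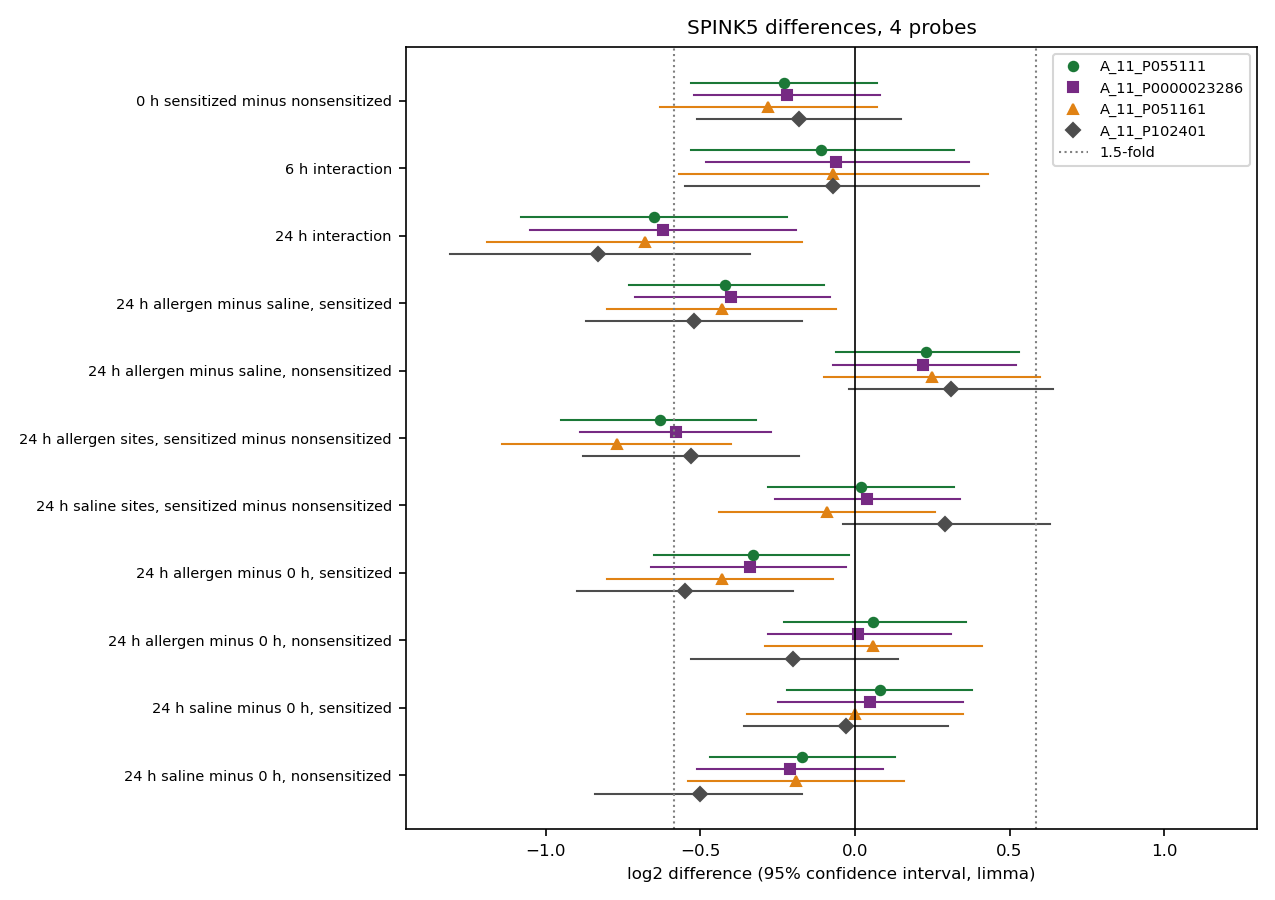
Differences in SPINK5 signal (log2, points) with 95% confidence intervals (lines) from the joint limma fit, for the comparisons named at the left and 4 probes; dotted lines mark 1.5-fold. The intervals of the 24-hr interaction and of the 24-hr allergen sites lie below 0 for all 4 probes, and those of the 0-hr comparison and the 6-hr interaction include 0.

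In untreated skin, before any patch, sensitized minus nonsensitized dogs differed by -0.23 on A_11_P055111 (SE 0.15, interval -0.53 to 0.07) and by -0.18 to -0.28 over the 4 probes. The limma adjusted p was 1 for each, and 0 of 4 probes passed the limits or an unadjusted p of 0.05, against 0.00218% of all probes changed and 3.35% with such a p. Without dog 2704 the difference on the first probe was -0.35 (SE 0.12, limma adjusted p = 0.837) and without dog 2838 it was -0.32 (SE 0.16, limma adjusted p = 1). The unadjusted limma p values of these fits were 0.00576 and 0.0471. At 6 hr the interaction was -0.11 (SE 0.21, interval -0.53 to 0.32) and between -0.06 and -0.11 on the 4 probes. On the first probe it was -0.02 without dog 2841, -0.18 without dog 2853 and -0.02 with the slide as a fixed block. The adjusted p was 1 for each and 0 of 4 passed the limits or an unadjusted limma p of 0.05, against 0.0% of all probes changed and 1.14% with such a p. The 24-hr and the 6-hr interaction were not tested against each other. Allergen minus saline at 6 hr was negative in 5 of 6 sensitized dogs (-0.59 to 0.21) and in 4 of 6 nonsensitized dogs (-0.35 to 0.24) on the first probe.

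The course was also followed from untreated skin. Relative to 0 hr, the allergen sites of sensitized dogs were at -0.33 by 24 hr on A_11_P055111 (SE 0.16, limma adjusted p = 0.082) and at -0.55 on A_11_P102401 (SE 0.17, adjusted p = 0.0106, 1.46-fold). All 5 dogs were lower than their own untreated skin on the first probe. The size was uneven, with -1.09 in dog 2838, -0.38 in dog 2841, -0.16 in dog 2855 and -0.11 in each of dogs 2840 and 2853. Without dog 2838 the value of the first probe was -0.17 (SE 0.17, adjusted p = 0.47), and leaving out each dog gave -0.39 to -0.17. By the rule of 1.5-fold 0 of 4 probes changed, against 13.8% of all probes, while 4 of 4 had an unadjusted p below 0.05, as did 48.3% of all probes. In nonsensitized dogs the same comparison gave 0.06 (SE 0.15, adjusted p = 0.754), with 3 dogs lower and 3 higher, and 0 of 4 probes changed or had an unadjusted limma p below 0.05, against 17.0% and 51.6% of all probes. The difference between both groups of dogs in this course was -0.40 (SE 0.22, interval -0.83 to 0.03, adjusted p = 0.269), so it did not pass the limits. Leaving out each dog gave -0.45 to -0.23, the latter without dog 2838, and the other alternatives gave -0.54 to -0.18. An exact two-sided permutation over the 5 and 6 dogs of the per-dog differences, whose means differed by -0.44, gave p = 0.00433, the smallest possible. The groups were separated narrowly, by -0.11 in dogs 2840 and 2853 against -0.10 in nonsensitized dog 2847. How many of all probes separated in this comparison was not counted here. The exact permutation p values of the other probes were 0.0476, 0.013 and 0.177. Of the fitted 24-hr arrays only that of the allergen site of dog 2840 shared a slide with 0-hr arrays. Time and slide can thus hardly be told apart in this course. With the slide as a fixed block the nonsensitized value was -0.24 (SE 0.37).

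At 6 hr the group means lay close to untreated skin, while single dogs moved either way. Allergen sites minus 0 hr were between -0.15 and -0.03 on the 4 probes in the mean of sensitized dogs and between -0.14 and -0.02 in that of nonsensitized dogs. Within dogs the same difference ran from -0.57 (dog 2841) to 0.30 (dog 2840) on A_11_P055111 and from -0.98 to 0.67 on A_11_P102401 in sensitized dogs, and from -0.34 to 0.34 and from -0.30 to 0.25 in nonsensitized dogs. From 6 to 24 hr the allergen sites of sensitized dogs moved by -0.27 on A_11_P055111 (adjusted p = 0.321) and by -0.52 on A_11_P102401 (adjusted p = 0.0596). Lower values at 24 hr than at 6 hr were seen in 4 of 5 dogs on the first probe, the exception being dog 2841, which had its low at 6 hr. In nonsensitized dogs the same step was 0.08 (adjusted p = 0.733). In either group of dogs the fitted 24-hr allergen arrays lay on other slides than the 6-hr ones, so time and slide can hardly be told apart.

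The saline sites of nonsensitized dogs were lower at 24 hr too, past an adjusted p of 0.05 on 1 probe. The 24-hr saline arrays shared no slide with those of untreated skin or of the 6-hr saline sites, so time and slide can hardly be told apart here. Against untreated skin they were at -0.50 on A_11_P102401 (SE 0.17, limma adjusted p = 0.00935, 1.42-fold), lower in 6 of 6 dogs with differences of -0.41 to -0.72. Against the 6-hr saline sites they were at -0.46 (SE 0.17, adjusted p = 0.0303). On the other 3 probes the 24-hr saline sites were at -0.17 to -0.21 against untreated skin, with adjusted p values of 0.238 to 0.377, and were lower in 6 of 6 dogs on A_11_P0000023286 and in 5 of 6 on the other pair. The -0.17 of A_11_P055111 ran from -0.43 to -0.04 over the alternatives. In this comparison 22.7% of all probes changed by both limits and 0 of the 4 SPINK5 probes did. In sensitized dogs the 24-hr saline sites were between -0.03 and 0.08 from untreated skin, and 0 of 4 probes changed or had an unadjusted limma p below 0.05, against 9.53% and 43.2% of all probes.

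**Figure D4:**
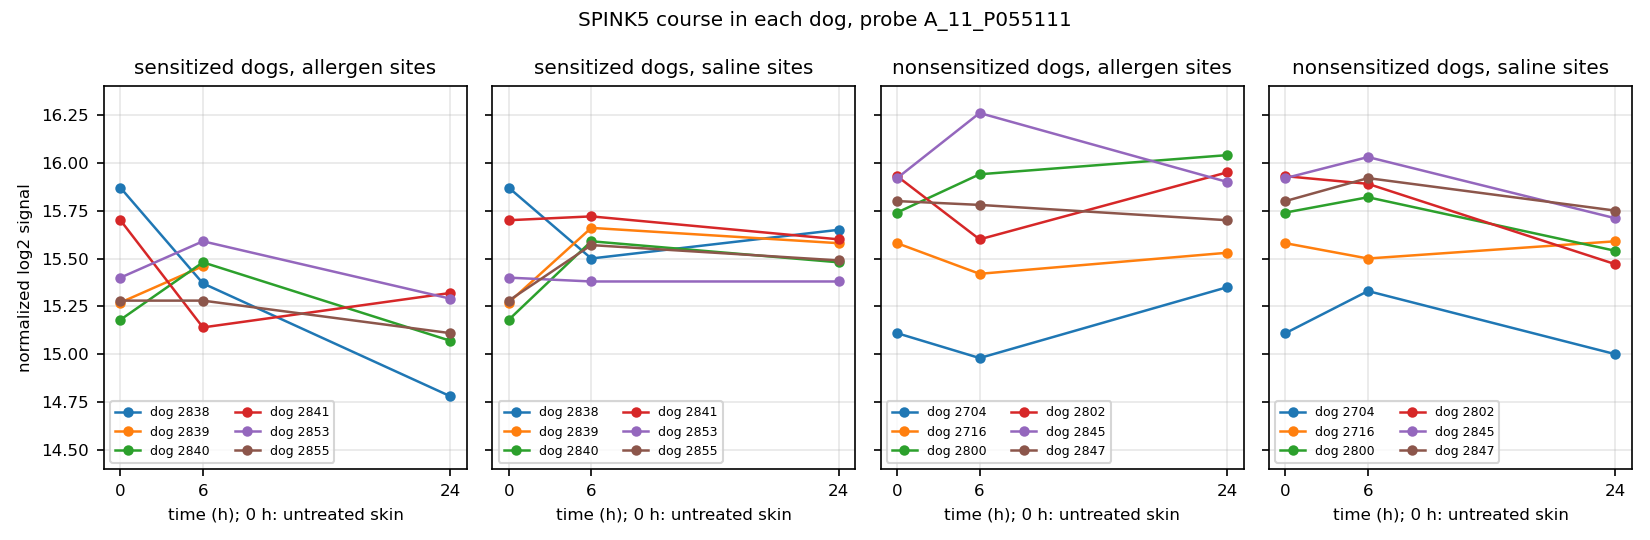
Course of SPINK5 probe A_11_P055111 in each dog (normalized log2 signal against time in hr), by sensitization and patch; each line is a dog, and the 0-hr point is its untreated skin. In the sensitized allergen panel the 24-hr values lie between 14.78 and 15.32, and dog 2839 has no 24-hr point because that specimen was left out.

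The left-out specimen 14 had low SPINK5 values. The paper excluded it for poor RNA integrity, lower total signal and poor correlation with all other samples. On the scale fitted with all 60 arrays it had 14.27, 14.01, 11.46 and 11.75 on the 4 probes in the order given above, each below the lowest of the other 59 arrays (14.77, 14.55, 12.31 and 13.61). This array was also the dimmest, with 67.65% of spots well above background against 68.85% to 80.15% on the others and an array weight of 0.049 against at least 0.255. The part of its low quality in these values was not tested.

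Genes around LEKTI were looked up in lists of target proteases, of other inhibitors, of other proteases and of junction, barrier and signaling proteins. The last list is called substrates here, though not all its members are known targets. A gene could be named through a RefSeq gene table, or else through the annotation that the study made for genes picked on these same arrays by their 24-hr differences. Counts of the second kind are therefore given apart, since that list was chosen on the 24-hr interaction and is not independent evidence of direction. The share of all probes changed in the 24-hr interaction, 0.942%, and their median of -0.004 are the comparison for each list, and the 14.2% with an unadjusted p below 0.05 that for counts at that level.

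Of 10 kallikreins and related proteases tied to LEKTI, KLK5, KLK6, KLK8 and KLK14 could be named and were measured, and KLK7 was not analysed here. By limma 0 of these 4 changed in the 24-hr interaction, with a median of -0.43, and 2 had an unadjusted p below 0.05, both toward lower values. KLK5, a trypsin-like protease that starts the kallikrein cascade, had -0.45 (SE 0.19, adjusted p = 0.229). KLK14, another trypsin-like target of LEKTI, had -0.41 (SE 0.20, adjusted p = 0.321). KLK8 had -0.48 (SE 0.43) and KLK6 0.44 (SE 0.63), with the widest errors of the list. Across the 59 arrays the Pearson r of the proteases with SPINK5 was 0.275 for KLK5, 0.156 for KLK14, -0.013 for KLK8 and -0.34 for KLK6.

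Of 13 listed proteins of junctions, barrier and signaling, some of them targets of kallikreins, 5 were named through RefSeq. None of these 5 passed both limits by limma in the 24-hr interaction, with a median of -0.08, and 2 had an unadjusted p below 0.05. DSG1, the desmosomal cadherin that kallikreins cut, had -0.60 (SE 0.19, adjusted p = 0.101). OCLN, a tight junction protein, had -0.56 (SE 0.13, adjusted p = 0.0193), just under 1.5-fold. F2RL1, the receptor that kallikreins activate, had 0.22 (SE 0.20, adjusted p = 0.737). DSG3 had -0.04 and CAMP, the cathelicidin precursor that kallikreins process, -0.08. DSG1 and OCLN ran with SPINK5 across arrays with an r of 0.515 and 0.592. Of the members named by the study, FLG2, a filaggrin-type protein, was lower by 1.41 (log2 difference -1.41, SE 0.32, adjusted p = 0.0191) and DSP, a desmosomal plaque protein, had -0.62 (SE 0.16, adjusted p = 0.0411). CDSN and TSLP were not analysed here.

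Other protease inhibitors took both directions. Of 36 on the list 5 were named through RefSeq, and 1 of them changed, with a list median of 0.74. TIMP1, an inhibitor of matrix metalloproteinases, had an interaction of 2.05 (SE 0.52, adjusted p = 0.0332). Its allergen-minus-saline difference was 0.65 in sensitized dogs (adjusted p = 0.555) and -1.39 in nonsensitized dogs (adjusted p = 0.028), of which only the latter passed both limits. SLPI, an inhibitor of neutrophil elastase, had 0.74 (SE 0.39, adjusted p = 0.394). Among 5 named by the study, A2ML1, a broad protease inhibitor of the epidermis, was higher by 1.16 (SE 0.24, adjusted p = 0.0126), and at the 24-hr sites of sensitized dogs its allergen-minus-saline difference was 1.42 (adjusted p = 3.32e-06). CAST, the inhibitor of calpains, was lower, with -0.64 (SE 0.17, adjusted p = 0.0445). CAST ran with SPINK5 across arrays (r = 0.639) and TIMP1 against it (r = -0.455).

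Of 17 other epidermal proteases 3 were named through RefSeq and 1 changed, with a list median of 0.79. CTSC, which activates serine proteases of leukocyte granules, was higher by 0.95 (SE 0.22, adjusted p = 0.0191), and CTSS had 0.79 (SE 0.34, adjusted p = 0.258). The study named 3 more. ASPRV1, a protease of the filaggrin pathway, had -1.25 (SE 0.26, adjusted p = 0.013) and BLMH, which breaks filaggrin down to amino acids, had -0.90 (SE 0.22, adjusted p = 0.0273).

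**Figure D5:**
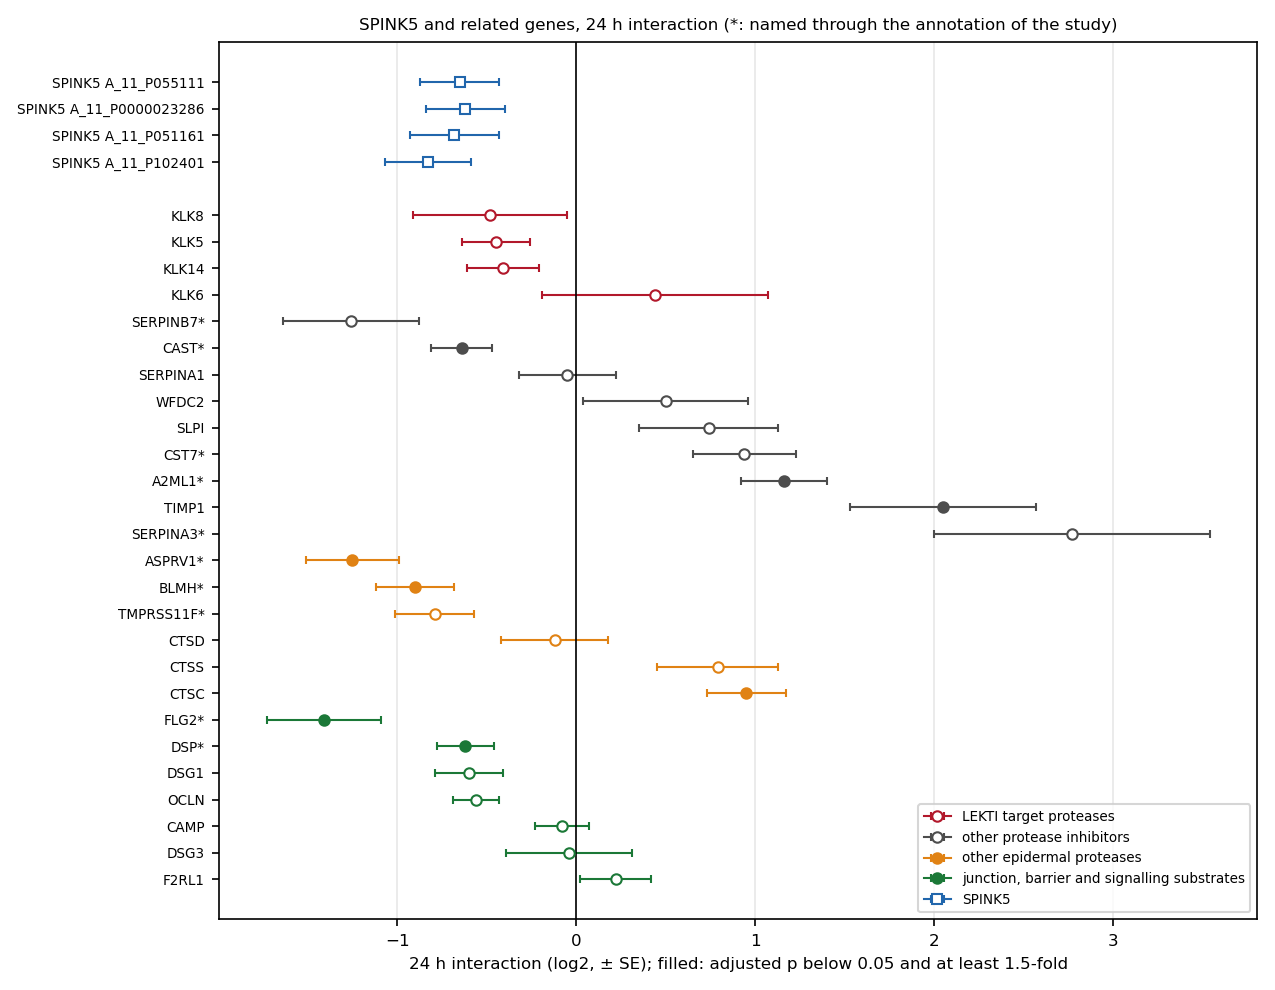
The 24-hr interaction (log2, ± SE) of the 4 SPINK5 probes and of members of the protease, inhibitor and substrate lists; filled symbols passed both limits, and a star marks genes named through the study's annotation, which was made for genes chosen on these arrays. SPINK5 lies between -0.62 and -0.83, as do the starred DSP and CAST. Of the substrates named through RefSeq, DSG1 lies at -0.60, OCLN at -0.56, CAMP at -0.08, DSG3 at -0.04 and F2RL1 at 0.22. The target proteases KLK8, KLK5, KLK14 and KLK6 lie at -0.48, -0.45, -0.41 and 0.44, and TIMP1 lies at 2.05.

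Markers of the cell types that a skin specimen holds were read beside SPINK5. Of 19 markers of the upper epidermis, KRT1, KRT2, TGM1 and KRTDAP were named through RefSeq, all 4 were above background, and 1 changed in the 24-hr interaction by limma. This was TGM1, a cross-linking enzyme of the cornified envelope, with -0.59 (SE 0.15, adjusted p = 0.0332), and the list median was -0.52. The mean of the 4 markers, each relative to its own mean over the arrays, ran from -0.55 to -0.20 at the 24-hr allergen sites of sensitized dogs and from -0.13 to 0.45 in nonsensitized dogs. Of 10 leukocyte markers, CD4, CD8A and CD163 were named through RefSeq, and 0 changed by limma while 1 had an unadjusted p below 0.05. Their mean ran from 0.18 to 0.51 and from -0.41 to 0.27 in the same groups. The 4 fibroblast markers ran from -0.45 to 0.03 and from -0.51 to 0.30. All named markers of these 3 lists passed the filter on dim probes. Among 2 endothelial, 1 hair follicle and 3 adipocyte and muscle markers that were named through RefSeq and passed the filter on dim probes, 0 changed by limma and 1, KDR, had an unadjusted p below 0.05. Of the markers named by the study, 2 of 6 of the upper epidermis and 1 of 2 of basal keratinocytes changed toward lower values. Of its leukocyte markers 0 of 4 changed, and all 4 had an unadjusted limma p below 0.05, toward higher values. Between the 24-hr allergen sites, 5 of these 6 and 2 of these 2 were lower by both limits, and 3 of these 4 were higher. Of those named through RefSeq, 1 of 4 of the upper epidermis was lower and 0 of 3 of leukocytes changed. In that comparison 7.16% of all probes changed in either direction. The part of these cell types in the SPINK5 difference was not tested.

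The genes whose signal was most like that of SPINK5 were sought among 1248 named genes by Pearson correlation with A_11_P055111 over the 59 arrays. The median r was -0.064 and the 95th percentile 0.449 over the 897 named through RefSeq, and -0.246 and 0.663 over the 351 named through the study's annotation, which were picked on their 24-hr differences. KCNIP2, a potassium channel interacting protein, came first with an r of 0.789. Its own 24-hr interaction was -0.53 (SE 0.23, adjusted p = 0.252). ESYT3 (r = 0.751), SCEL (0.739), CGN (0.737), CTNNBIP1 (0.718), PPL (0.717), RORA (0.704), EPS8L1 (0.701), LY6G6C (0.694) and GPX3 (0.694) came next. After the group means had been removed the r of KCNIP2 was 0.837 and those of the other 9 were lower than before, from 0.554 (CTNNBIP1) to 0.693 (ESYT3). SCEL and PPL are parts of the cornified envelope and CGN is a tight junction protein. Of these 10 genes, 7 were named through the study's annotation and 3 (KCNIP2, CGN and GPX3) through RefSeq. CGN had a 24-hr interaction of -0.98 (SE 0.22, adjusted p = 0.0176). Among the genes with the lowest correlations were SLC35B4 (-0.676), RWDD4 (-0.629), TRIB2 (-0.622) and CYBA (-0.61).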

How the data were processed

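Cy3-labelled cRNA made from total RNA of the 60 skin specimens was hybridized to one-color Agilent canine arrays, 1 array per specimen. The authors extracted each array with Feature Extraction software (version 10.7.3.1 per the labels), and the processed signal used here is the spot intensity after its background subtraction, unscaled. The deposited table of the series holds the same intensity values, and 2 of the array files lack the header of settings. Signals marked as outliers were set to missing, and spots had to clear background clearly on 5 or more arrays of any 1 group, which left 45972 probes. Variance stabilization on the log2 scale was computed from the deposited intensities with a reimplementation of the vsn model, checked on simulated data. The log2 values were fitted with limma 3.58.1 in R 4.3.3 as 10 group means over 59 arrays, unpaired as in the study, with Benjamini-Hochberg adjustment over all probes. In a simulation of the 24-hr interaction on 45972 probes, 82% of 2-fold and 98% of 4-fold differences were recovered with 6 false calls. Its errors were independent, without the shared dogs and slides of these data, and no difference below 2-fold was tried. Exact permutation tests were two-sided and used Python 3.11.15 with scipy 1.17.1.

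The number of each specimen's dog pairs it with the other specimens of the same animal. Deviations from the group means correlated with a median r of 0.386 over 116 same-dog pairs and of -0.044 over 1595 pairs of different dogs, with a lowest dog median of 0.197. Depth on arrays means signal over background, and the number of dogs limits the precision, which the standard errors give. Probes were named through a RefSeq gene table (assembly UU_Cfam_GSD_1.0), in which 1067 array identifiers and 898 symbols were found, and through the study's annotation, which named 351 further symbols. Its accompanying fold changes and p-values were not used. Named genes were members of the lists that passed both limits in the 24-hr interaction or in allergen minus saline of sensitized dogs, those with a known tie to LEKTI, and the 10 genes most and the 5 least correlated with A_11_P055111. The SPINK5 probes, the lists and the tests were chosen with earlier results of these data known. The alternatives were other scalings and filters, all 60 arrays with and without weights, the dog, the slide or the scan session as a block, single spots, a fit of the compared groups alone, each dog left out, another threshold and exact permutation. The scan session was added after seeing the data. Some genes that this rule names are not reported here. No probe sequences were analysed here.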

Additional observations from a re-analysis of the deposited data

Results flagged for a closer look

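In 40 combinations of probe and group, 4 had a dog whose SPINK5 value stood apart from the others of its group by more than Dixon's 95% critical value, and chance gives about 1 in 20. Dog 2704 was such a dog at the nonsensitized 24-hr saline sites, with 15.00 on A_11_P055111, 14.78 on A_11_P0000023286 and 13.78 on A_11_P102401, where the other dogs of the group began at 15.47, 15.29 and 14.28. On A_11_P055111 this dog was also the lowest of its group at the 24-hr allergen sites (15.35). Its allergen-minus-saline difference of 0.35 there was below those of dogs 2800 (0.50) and 2802 (0.48). On A_11_P0000023286 the difference was 0.44, and on A_11_P102401 it was 0.60, the largest of the group. The interaction without dog 2704 is given with the interaction above. The probes share a transcript, so the 3 saline values of dog 2704 are not independent. Dog 2841 was such a dog at the sensitized 6-hr allergen sites on A_11_P102401, with 13.93.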

How the results depend on the processing

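The direction of the 24-hr interaction and of the 24-hr allergen sites on A_11_P055111 was the same under every alternative run, with ranges of -0.79 to -0.57 and -0.77 to -0.49 where every dog was kept, while the call depended on the fit. The interaction passed both limits with all 60 arrays (-0.79, or -0.69 with array weights) and with the dog as a replicate block (-0.65, fixed and random). Exact permutation over dogs (-0.64) has no adjusted p, so its unadjusted p, below 0.05 like that of the unblocked fit, is no gained call; leaving out each dog gave -0.73 to -0.54. The allergen sites lost the call with the slide as a block (-0.57 random, -0.49 fixed), and leaving out each dog gave -0.71 to -0.55, the call being lost without dogs 2800 and 2838. The dog block changed no other call of this probe among the comparisons it could fit, since a fixed block cannot give differences between dogs at 0 hr or between 24-hr sites. Values near 0 changed sign. Allergen minus 0 hr at 24 hr in nonsensitized dogs, 0.06, went to -0.03 and -0.24 with the slide as a random and a fixed block and to -0.05 with the scan session. Without the filter on dim probes the 24-hr saline sites gave -0.04, and 6-hr allergen minus 0 hr gave 0.04 in sensitized and 0.05 in nonsensitized dogs, the latter 0.10 with array weights. Saline minus 0 hr gave -0.04 and -0.01 at 24 hr in sensitized dogs and -0.08 and -0.02 at 6 hr in nonsensitized dogs with the slide and the scan session as blocks, and the allergen step from 6 to 24 hr in nonsensitized dogs gave -0.07 with array weights and -0.02 with the slide. Leaving out dogs gave -0.08 to 0.07 for the 24-hr saline sites, -0.14 to 0.04 for 6-hr allergen minus 0 hr in sensitized and -0.09 to 0.05 in nonsensitized dogs. Over the other 3 probes and all comparisons, 1863 values under alternatives held 39 gained calls, 1 lost call (A_11_P051161 at the 24-hr allergen sites with the slide as a fixed block) and 77 sign changes, none of a difference above 0.20 in size. Of the members named through RefSeq that passed both limits in the 24-hr interaction, target proteases went from 0 to 2 with array weights, substrates from 0 to 1 or 2 under 6 settings (2 with all 60 arrays), other inhibitors from 1 to 0 without the filter and other proteases from 1 to 0 in a fit of the compared groups alone. The causes of these changes were not tested. All 4 probes were well above background on 60 of 60 arrays, and the number of dogs limits the precision.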
